A study of Mus musculus with 13 samples.

Results

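The genes described here are 9 genes of lipolysis and fatty acid use, measured by RNA-seq in brain vessel preparations from 13 mice. They are the intracellular lipases Pnpla2 and Lipe, the vascular lipase Lpl and its inhibitor Angptl4, the lipid droplet coat genes Plin2 and Plin4, the fatty acid carrier Fabp4, and Cpt1a and Pdk4, which act where fatty acids and pyruvate enter mitochondrial metabolism. They were chosen by symbol from the 47643 genes counted, and all 9 were found. The set was selected on Pnpla2, which was higher after LPS and higher again when an inhibitor of a different lipase was added. The values of Pnpla2 are therefore a description with no test, and it was left out of every count of genes that passed a test.

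Cells store fatty acids as triglyceride in lipid droplets, which perilipins coat. ATGL, encoded by Pnpla2, removes the initial fatty acid from triglyceride, hormone-sensitive lipase (Lipe) cleaves the diglyceride that is left, and monoacylglycerol lipase (MAGL, encoded by Mgll) cleaves the monoglyceride. MAGL is also the main enzyme that degrades the endocannabinoid 2-arachidonoylglycerol in brain. Lipoprotein lipase (Lpl) acts outside the cell on circulating triglyceride at the vessel wall. Fatty acids enter mitochondria through the carnitine shuttle, whose gate is Cpt1a, and Pdk4 switches off pyruvate dehydrogenase when fatty acids are burned in place of glucose.

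The mice were male CD1 animals aged 8 to 10 weeks. The 4 sham-vehicle mice were given neither LPS nor compound. The 5 LPS-vehicle mice received Salmonella LPS into the peritoneum at 3 mg/kg at 0, 6 and 24 h. The 4 LPS-CPD-4645 mice had the same LPS and, per the labels 30 min after each dose, the MAGL inhibitor CPD-4645. It was given under the skin at 10 mg/kg in DMSO, Cremophor and saline. A passage of the study gives a longer delay after each LPS dose. The study also reported partial inhibition of the serine hydrolases ABHD6 and FAAH in brain by this compound. Tissue was taken at 28 h, and each library came from 1 mouse. No group had CPD-4645 without LPS, so an effect of the compound on its own cannot be told apart from its effect in LPS-treated mice.

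Total counts ran from 7813559 to 55133373 per library, and the shallowest were those of mouse 3 given LPS and vehicle and mouse 1 given LPS and CPD-4645. Between 3.97% and 12.7% of a library's counts fell on mitochondrial genes. The tissue was labelled as neurovasculature. The summed level of 10 endothelial markers ran from 280 to 579 CPM (counts scaled to the library size) over all mice, whereas 8 neuronal markers summed to between 7806 and 10749 CPM, so neuronal transcripts were abundant in the preparation. In such bulk RNA a change in the number of cells of a type and a change in RNA per cell cannot be told apart.

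The sequence before the start site is shown for the 3 genes with a promoter entry whose rise after LPS was largest, Plin4, Pdk4 and Pnpla2. The sequences come from RefSeq (GRCm38.p6), which held an entry for 6 of the 9 genes, with Lpl, Angptl4 and Fabp4 not among them. Bases inside the annotated gene were left off. Capitals mark the GC box GGGCGG, which Sp-family factors recognise, and the CACCC box, which Klf-family factors recognise, on either strand.
Pnpla2, chr7:141454938-141455187, plus strand: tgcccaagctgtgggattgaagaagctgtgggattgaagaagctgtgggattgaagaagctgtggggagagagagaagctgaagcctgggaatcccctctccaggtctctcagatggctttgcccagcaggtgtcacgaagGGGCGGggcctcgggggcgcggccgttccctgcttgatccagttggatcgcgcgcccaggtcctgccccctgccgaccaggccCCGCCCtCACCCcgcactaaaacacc
Plin4, chr17:56109804-56110032, minus strand: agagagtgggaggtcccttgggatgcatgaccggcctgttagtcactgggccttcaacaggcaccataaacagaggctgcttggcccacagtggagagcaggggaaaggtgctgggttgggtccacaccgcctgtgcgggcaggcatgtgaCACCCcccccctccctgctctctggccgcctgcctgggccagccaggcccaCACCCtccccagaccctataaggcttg
Pdk4, chr6:5496310-5496528, minus strand: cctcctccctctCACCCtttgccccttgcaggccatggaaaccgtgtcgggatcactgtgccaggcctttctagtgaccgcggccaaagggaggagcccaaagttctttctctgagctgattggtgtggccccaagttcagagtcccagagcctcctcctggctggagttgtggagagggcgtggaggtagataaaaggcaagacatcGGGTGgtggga
Distances are counted back from the RefSeq start, so for Plin4 and Pdk4 they include the bases left off. Pnpla2 held GC boxes that began 109 and 26 bases before its start and a CACCC box at 19. Plin4 held CACCC boxes at 99 and 48 bases and no GC box, and Pdk4 held them at 238, 42 and 11 bases, the last within the bases left off. Both motifs are common: 32.7% of all 32851 promoter windows of 250 bases held a GC box and 52% a CACCC box. The direct repeat of AGGTCA with 1 base between its copies, the form bound by PPAR, was in 0.0335% of all windows and in 0 of the 7 windows of these genes. The glucocorticoid receptor palindrome, AGAACA and its reverse complement with 3 bases between them, was in 0.00913% of all windows and also in 0 of the 7. The single core AGGTCA, which is part of the direct repeat, occurred in the windows of Plin2 and Cpt1a, against 14% of all windows, and the Foxo site GTAAACA occurred in 1 of the 2 windows of Lipe, against 3.17%.

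After LPS most of the set was higher than in sham-vehicle mice, and with CPD-4645 3 genes other than Pnpla2 differed from LPS alone. Of the 8 genes other than Pnpla2, 6 rose after LPS (Lipe, Angptl4, Pdk4, Plin2, Plin4 and Fabp4) with an adjusted p no higher than 0.05 in edgeR, against 11.1% of the 17285 genes tested. Lpl was the 1 gene that fell, against 8.86% of all genes, and Cpt1a did not pass. A change of at least 2-fold was seen in 5 of the 8 (Angptl4, Pdk4, Plin2, Plin4 and Fabp4), against 5.68% of all genes, and the same 5 had every LPS-vehicle mouse above every sham-vehicle mouse, against 9.68%. Fabp4 passed the filter on low counts only through LPS-treated mice and so had to differ from sham, and its call is not read as support. Of the 7 genes without it 5 rose and 4 did so by 2-fold. The median log2 fold change was 1.80 over the 8 and 1.30 over the 7 without Fabp4, beside 0.00 over all genes tested.

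When CPD-4645 was added to LPS, Lpl was higher, against 14.1% of all genes, and Plin2 and Plin4 were lower, against 16.4%. None of the 8 passed with a 2-fold change, against 5.9% of all genes. That count was also 0 at an unadjusted p under 0.05 and in limma-voom and DESeq2. Plin4 alone had every treated mouse below every LPS-vehicle mouse, against 12% of all genes. All 3 calls rested on LPS-CPD-4645 mouse 4: without it the adjusted p was 0.057 for Lpl, 0.07 for Plin2 and 0.06 for Plin4, with log2 fold changes of 0.43, -0.45 and -0.81. DESeq2 did not call Plin4 with all mice (adjusted p = 0.095).

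Between LPS-CPD-4645 and sham-vehicle mice the same 6 genes that rose after LPS were higher, against 19.5% of all genes, and 4 of them (Angptl4, Pdk4, Plin4 and Fabp4) by at least 2-fold, against 11.1%. Without Fabp4 these counts were 5 and 3 of 7. None of the 8 was lower, against 19.3% of all genes, and that count was 0 at an unadjusted p under 0.05 and in limma-voom and DESeq2 as well. In 5 of the 8 (Lipe, Angptl4, Pdk4, Plin2 and Plin4) every LPS-CPD-4645 mouse lay above every sham-vehicle mouse, against 18.7% of all genes.

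**Figure D1:**
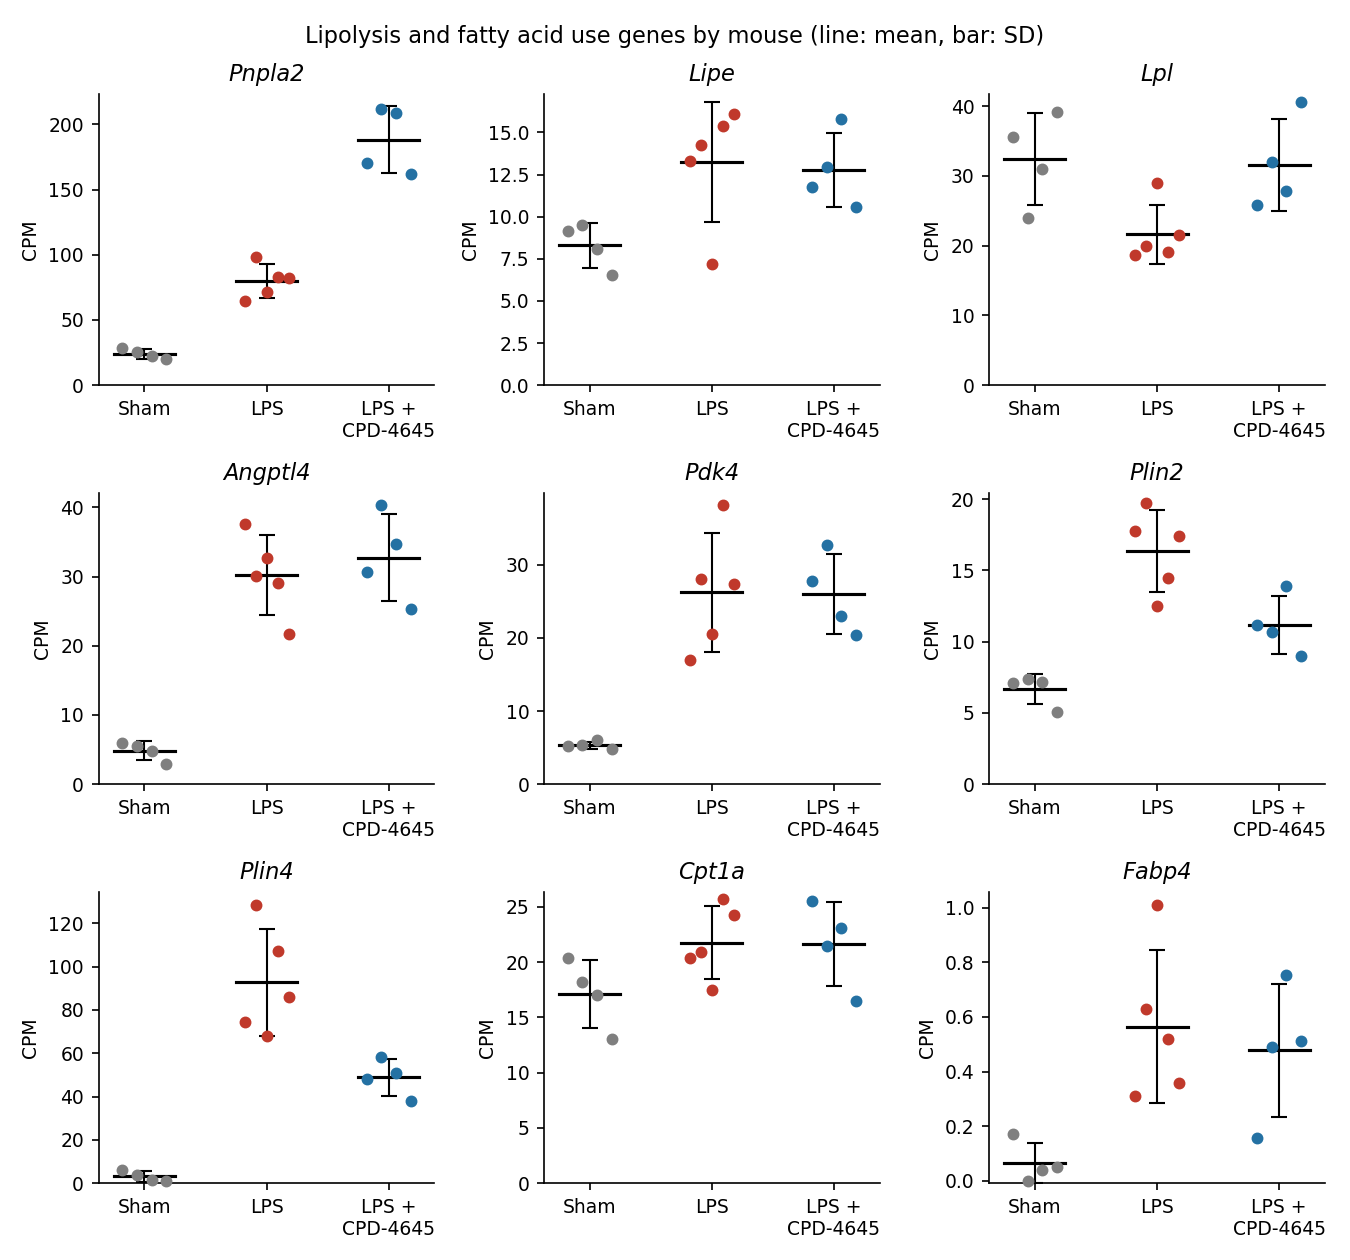
Level of each of the 9 genes in CPM (y axis, from 0) in every mouse, by group (x axis); points are mice, the line is the group mean and the bar its SD. Pnpla2 rises across the 3 groups from a mean of 24.1 to 79.9 and 188 CPM, Angptl4 and Pdk4 are high in both LPS groups, Plin2 and Plin4 have lower means with CPD-4645 than with LPS alone, and Lpl is lowest in LPS-vehicle mice.

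Pnpla2 lies on chromosome 7 (141455198 to 141460743, plus strand, GRCm38). Its level was 28.9, 25.2, 22.3 and 20.2 CPM in the 4 sham-vehicle mice, and 64.7, 98.4, 71.3, 83.3 and 81.9 CPM in the 5 LPS-vehicle mice. In the 4 LPS-CPD-4645 mice it was 170, 212, 209 and 162 CPM. The 3 groups did not overlap at either step. In edgeR the log2 fold change was 1.73 ± 0.13 (SE) after LPS, a further 1.23 ± 0.12 with CPD-4645, and 2.96 ± 0.14 between LPS-CPD-4645 and sham-vehicle mice, which is 7.78-fold. These are the values that chose the set.

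Lipe, on chromosome 7 (25379527 to 25398710, minus strand), rose after LPS and did not pass with CPD-4645. Its level was 9.13, 9.49, 8.09 and 6.52 CPM in sham-vehicle mice, and 13.3, 14.3, 7.18, 15.4 and 16.1 CPM in LPS-vehicle mice. It was 11.8, 12.9, 15.8 and 10.6 CPM in LPS-CPD-4645 mice. LPS-vehicle mouse 3 fell within the sham range, and every LPS-CPD-4645 mouse lay above it. The log2 fold change was 0.69 ± 0.20 after LPS (adjusted p = 0.018) and 0.62 ± 0.21 between LPS-CPD-4645 and sham-vehicle mice (adjusted p = 0.024). It was -0.07 with CPD-4645 relative to LPS-vehicle, with a 95% interval from -0.48 to 0.33. Sham-vehicle mouse 4 decided both calls: without it the adjusted p was 0.069 and 0.071, and the call against sham was also lost without LPS-CPD-4645 mouse 3 (adjusted p = 0.079). Lipe shares 861 exonic bases with the antisense gene 4732471J01Rik, which held 657 reads in all. The strand setting of the counts was not stated, so reads of that stretch cannot be assigned with certainty.

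Mgll, which encodes the main target of CPD-4645, did not pass in any comparison. Its mean was 109 ± 5.30 CPM (SD, n = 4) in sham-vehicle, 116 ± 13.8 (n = 5) in LPS-vehicle and 116 ± 7.76 (n = 4) in LPS-CPD-4645 mice. The log2 fold change with CPD-4645 was 0.00, with a 95% interval from -0.18 to 0.18. Of the 10 lipase and cofactor genes tested beside Pnpla2 and Lipe, Mgll among them, 1 rose after LPS, a share near the 11.1% of all genes. This was Hilpda, which encodes an inhibitor of ATGL, which went from 8.97 ± 0.342 to 14.9 ± 4.19 CPM (log2 fold change 0.73 ± 0.18, adjusted p = 0.0066). With CPD-4645 it was 11.6 ± 0.756 CPM and did not pass (adjusted p = 0.13); leaving out LPS-vehicle mouse 4 or 5 gave 0.049 and 0.047. Lipa, the lysosomal acid lipase, fell under CPD-4645 from 33.3 ± 4.07 to 21.4 ± 2.52 CPM, with all treated mice below all LPS-vehicle mice (adjusted p = 0.00026). Abhd5, the coactivator of ATGL, also fell, by 0.36 on the log2 scale, and the calcium-independent phospholipase gene Pnpla8 rose from 58.2 to 69.4 CPM (adjusted p = 0.048, lost in 9 of the 13 fits without 1 mouse). G0s2, the other ATGL inhibitor of the list, passed in no comparison. With CPD-4645 1 of the 10 was higher and 2 were lower, against 14.1% and 16.4% of all genes.

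Lpl, on chromosome 8 (68880491 to 68907448, plus strand), fell after LPS and was higher with CPD-4645. It was 35.6, 23.9, 31.0 and 39.2 CPM in sham-vehicle mice, and 18.6, 19.999, 29.0, 19.1 and 21.5 CPM in LPS-vehicle mice. In LPS-CPD-4645 mice it was 25.9, 32.0, 27.9 and 40.7 CPM. Of the 5 LPS-vehicle mice, 4 lay below all mice of the other groups, and mouse 3 lay inside both other groups. LPS-CPD-4645 mouse 4 lay above every sham mouse, and the other 3 treated mice lay within the sham range. Lpl fell by 0.60 ± 0.16 on the log2 scale after LPS (adjusted p = 0.013) and was 0.57 ± 0.16 higher with CPD-4645 (adjusted p = 0.013). Both comparisons use the same LPS-vehicle mice. Between LPS-CPD-4645 and sham-vehicle mice the difference was -0.03, with a 95% interval from -0.39 to 0.32. The fall after LPS was not called without sham-vehicle mouse 4 (log2 fold change -0.50, adjusted p = 0.056).

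Markers of choroid plexus, red cells, neurons and oligodendrocytes also had lower median sums in LPS-vehicle than in both other groups, and their part in the Lpl result was not tested. The 7 choroid plexus markers, led by Ttr, summed to between 338 and 707 CPM in sham-vehicle, 169 and 370 in LPS-vehicle and 245 and 781 in LPS-CPD-4645 mice. Of these 7, 2 were lower after LPS, against 8.86% of all genes, and 1 was higher with CPD-4645, against 14.1%. The red cell markers summed to between 468 and 958, 239 and 461, and 325 and 706 CPM in the 3 groups, and all 4 of the 7 that were tested fell after LPS, against 8.86% of all genes. The 8 neuronal markers summed to between 9342 and 10721, 7806 and 8673, and 8350 and 10749 CPM, and 2 of the 8 fell after LPS, against 8.86%. The 8 oligodendrocyte markers summed to between 5138 and 7226, 3766 and 4931, and 4250 and 5386 CPM, and 4 of the 8 fell and 1 rose, against 8.86% and 11.1%.

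Angptl4, whose protein inactivates lipoprotein lipase, rose as Lpl fell. It lies on chromosome 17 (33773750 to 33781830, minus strand). Its level was 6.02, 5.55, 4.82 and 2.96 CPM in sham-vehicle mice, and 37.6, 30.1, 32.6, 29.1 and 21.8 CPM in LPS-vehicle mice. In LPS-CPD-4645 mice it was 30.6, 40.3, 34.7 and 25.4 CPM. The lowest LPS-treated mouse stood far above the highest sham mouse, and both LPS groups overlapped throughout. The edgeR log2 fold change was 2.63 ± 0.20 after LPS (6.17-fold, adjusted p = 5.5e-08) and 2.74 ± 0.21 between LPS-CPD-4645 and sham-vehicle mice (adjusted p = 3.9e-08). With CPD-4645 relative to LPS-vehicle it was 0.12, with a 95% interval from -0.26 to 0.49.

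Of the 12 other genes of intravascular lipolysis, 6 were tested and none passed after LPS, where 11.1% of all genes were higher and 8.86% lower. With CPD-4645 1 of the 6 was lower, against 16.4% of all genes, and none was higher, against 14.1%. This was Lipg, the endothelial lipase, which fell from 4.15 ± 0.98 to 2.23 ± 0.0944 CPM (log2 fold change -0.88 ± 0.23, adjusted p = 0.0079). Gpihbp1, which anchors lipoprotein lipase to capillaries, was near 0, with group means from 0.0123 to 0.0417 CPM, and was not tested.

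**Figure D2:**
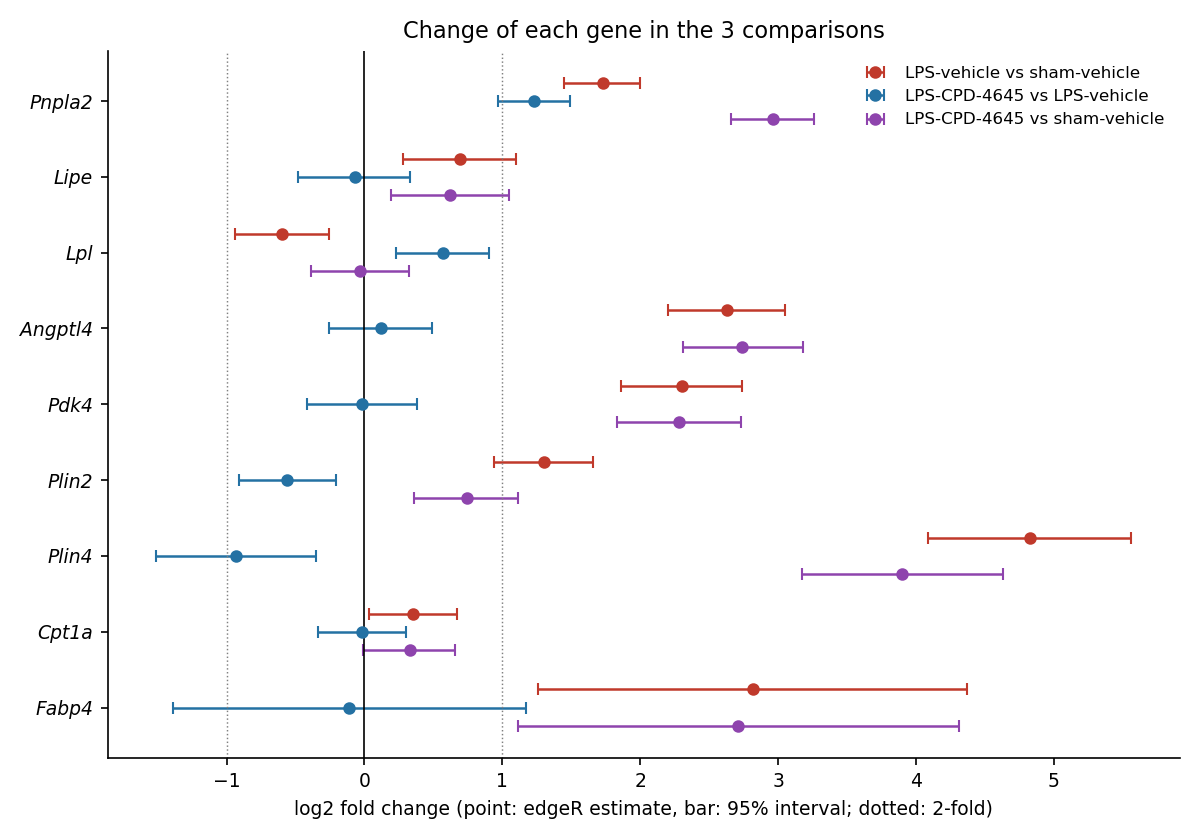
Log2 fold change of each gene (x axis) in the 3 comparisons, as the edgeR estimate (point) with its 95% interval (bar); dotted lines mark a 2-fold change. Plin4 has the largest rise after LPS, 4.83, and the intervals of Lpl, Plin2 and Plin4 for LPS-CPD-4645 against LPS-vehicle exclude 0. Pnpla2, which chose the set, is drawn as a description.

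The perilipin gene Plin4 had the largest change of the set. It lies on chromosome 17 (56100591 to 56109803, minus strand), where 8 exonic bases overlap Hdgfl2 on the other strand. It was 6.22, 3.70, 1.39 and 1.14 CPM in sham-vehicle mice, and 74.2, 128, 68.1, 107 and 85.9 CPM in LPS-vehicle mice. In LPS-CPD-4645 mice it was 48.2, 58.5, 50.9 and 38.1 CPM. No group overlapped another: the treated mice lay below all LPS-vehicle mice and far above all sham mice. The log2 fold change was 4.83 ± 0.35 after LPS (28.4-fold, adjusted p = 3.3e-08), -0.93 ± 0.28 with CPD-4645 (adjusted p = 0.017) and 3.90 ± 0.35 between LPS-CPD-4645 and sham-vehicle mice (14.9-fold, adjusted p = 2.2e-07). Sham mice differed among themselves by 5.47-fold in Plin4, the widest spread within a group among the genes with reads in every mouse. Without sham-vehicle mouse 1 the log2 fold changes relative to sham were 5.46 and 4.53.

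Plin2, the perilipin of most non-fat cells, followed the same course on a smaller scale. It lies on chromosome 4 (86648386 to 86670060, minus strand). It was 7.10, 7.36, 7.17 and 5.09 CPM in sham-vehicle mice, and 17.8, 19.7, 12.5, 14.5 and 17.4 CPM in LPS-vehicle mice. In LPS-CPD-4645 mice it was 11.1, 10.7, 13.9 and 8.99 CPM. Each treated mouse exceeded each sham mouse, and 1 treated mouse reached into the LPS-vehicle range. The fitted log2 fold change was 1.30 ± 0.17 after LPS (adjusted p = 2.4e-05), -0.56 ± 0.17 with CPD-4645 (adjusted p = 0.016) and 0.74 ± 0.18 between LPS-CPD-4645 and sham-vehicle mice (adjusted p = 0.0032).

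Plin3, a further perilipin, went another way. It was 28.4 ± 5.56 CPM in sham-vehicle and 20.6 ± 3.96 CPM in LPS-vehicle mice, a difference that did not pass (adjusted p = 0.055; from 0.028 to 0.041 in the 4 fits without 1 mouse that called it). With CPD-4645 it fell to 8.47 ± 1.77 CPM, where the highest treated mouse, at 11.1 CPM, was below the lowest LPS-vehicle mouse, at 16.6 CPM (log2 fold change -1.30 ± 0.17, adjusted p = 4.5e-05). Hsd17b11, a droplet-bound dehydrogenase, fell from 81.7 ± 11.2 to 62.7 ± 5.82 CPM (adjusted p = 0.0063), and Bscl2, which encodes seipin, fell by 0.44 on the log2 scale. Plin1 and Cidec, the droplet proteins of fat cells, were at or near 0.

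Summed levels of neutrophil and monocyte markers were higher in every LPS-vehicle mouse than in any mouse of the other groups. Plin2 and Plin4 were likewise higher after LPS and lower with CPD-4645. The 10 neutrophil markers summed to between 3.65 and 11.2 CPM in sham-vehicle, 72.6 and 290 CPM in LPS-vehicle and 7.94 and 28.5 CPM in LPS-CPD-4645 mice. Several of these markers, and some of the monocyte list, had few reads outside LPS-vehicle mice and so passed the filter on low counts mainly through the group where they are high, and no count of those passing the test is given for either list. Ly6g had no read in 7 libraries. LPS-vehicle mouse 2 had the highest neutrophil sum and also the highest Plin4 and Plin2, whereas mouse 3, with the next highest neutrophil sum (115 CPM), had the lowest Plin4 and Plin2 of its group. The 10 monocyte and macrophage markers summed to between 21.1 and 28.3, 93.8 and 205, and 55.0 and 76.7 CPM. Lymphocyte markers were low in all groups, with sums of 3.47 to 4.99, 2.96 to 4.66 and 2.48 to 4.97 CPM. The 10 endothelial markers gave 280 to 441, 299 to 579 and 311 to 441 CPM, with 4 higher and 2 lower after LPS, against 11.1% and 8.86% of all genes, and 5 lower with CPD-4645, against 16.4%. The part of these cells in the Plin2 and Plin4 results was not tested.

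Fabp4, a fatty acid carrier of fat cells, macrophages and capillary endothelium, was at the edge of detection. It lies on chromosome 3 (10204088 to 10208576, minus strand). Its reads numbered 6, 0, 1 and 1 in sham-vehicle mice, and 9, 35, 8, 19 and 12 in LPS-vehicle mice. In LPS-CPD-4645 mice they numbered 2, 14, 20 and 13. The log2 fold change was 2.82 ± 0.74 after LPS and 2.71 ± 0.76 between LPS-CPD-4645 and sham-vehicle mice. Since Fabp4 entered the test only through the mice in which it is high, these are given as a description, with no p. Sham-vehicle mouse 1 held most of the sham reads, and without it these values were 4.02 and 3.90, so the size of the difference is poorly set. With CPD-4645 relative to LPS-vehicle the value was -0.11, with a 95% interval from -1.39 to 1.17, which includes a 2-fold change in either direction.

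Most of the defining transcripts of fat cells were at or near 0 in these samples. Cfd and Lep had no read in any of the 13 libraries, Adipoq had at most 9 and Plin1 at most 13, and Cidec had 7 reads in 1 library. Retn had between 3 and 47 reads in every library, with means of 1.04, 0.94 and 0.592 CPM in the 3 groups. The summed level of the 7 fat cell markers, most of it from Acvr1c, went from 15.7 to 19.4 CPM in sham-vehicle mice to 10.7 to 15.3 and 7.64 to 12.2 CPM in the LPS groups. The part of fat cells in the results was not tested.

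**Figure D3:**
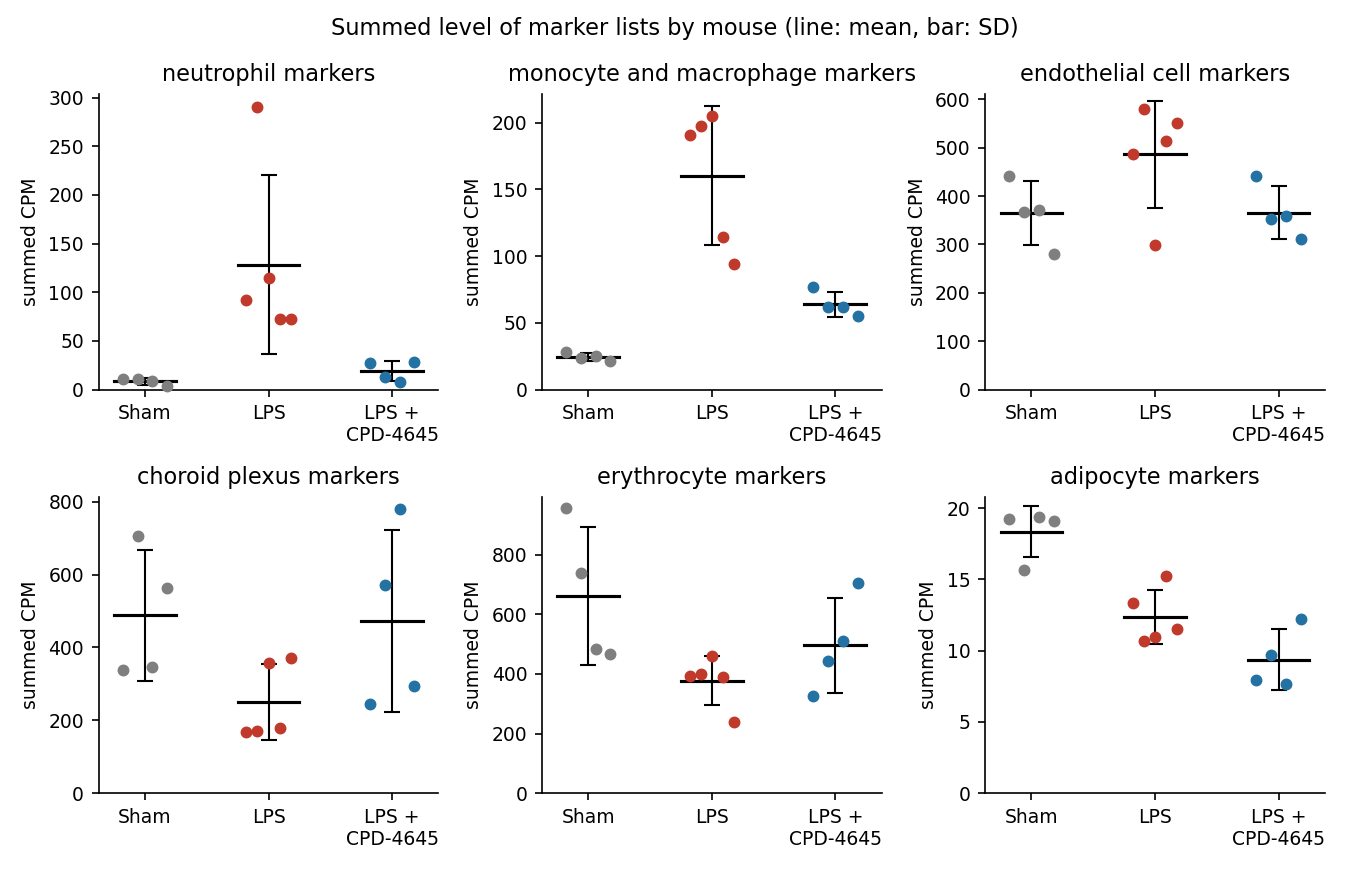
Summed CPM of 6 marker lists (y axis, from 0) in every mouse, by group (x axis); points are mice, the line is the group mean and the bar its SD. Neutrophil markers are between 72.6 and 290 CPM in LPS-vehicle mice and at most 28.5 CPM in every other mouse, and fat cell markers do not exceed 19.4 CPM.

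Pdk4, which encodes the pyruvate dehydrogenase kinase that fasting induces, was high in both LPS groups. It lies on chromosome 6 (5483351 to 5496309, minus strand). It was 5.16, 5.39, 5.97 and 4.84 CPM in sham-vehicle mice, and 16.9, 28.0, 20.5, 38.2 and 27.3 CPM in LPS-vehicle mice. In LPS-CPD-4645 mice it was 27.8, 32.7, 23.0 and 20.4 CPM. Sham mice were tightly grouped, while LPS-vehicle mice differed by 2.26-fold. In edgeR the log2 fold change was 2.30 ± 0.21 after LPS (4.93-fold, adjusted p = 3.8e-07) and 2.28 ± 0.22 between LPS-CPD-4645 and sham-vehicle mice (adjusted p = 4.2e-07). With CPD-4645 relative to LPS-vehicle it was -0.02, with a 95% interval from -0.42 to 0.38.

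The summed level of astrocyte markers was also higher after LPS, as Angptl4 and Pdk4 were, and most of that rise came from Gfap. The 8 markers summed to between 1390 and 1750 CPM in sham-vehicle, 1801 and 2352 in LPS-vehicle and 1698 and 2256 CPM in LPS-CPD-4645 mice, so that every LPS-vehicle mouse was above every sham mouse and treated mice overlapped both groups. After LPS 3 of the 8 rose (Gfap, Gjb6 and Aldh1l1), against 11.1% of all genes, and with CPD-4645 none passed. Aqp4, Gja1 and S100b had lower means after LPS, from 64.6 to 58.1, 197 to 194 and 88.7 to 79.2 CPM, and did not pass. The median log2 fold change of the 8 after LPS was 0.11. Gfap, the intermediate filament gene of reactive astrocytes, went from 95.2 ± 24.8 to 504 ± 109 CPM (log2 fold change 2.40 ± 0.19, adjusted p = 6.7e-08) and was 366 ± 60.8 CPM with CPD-4645, a difference from LPS-vehicle that did not pass (adjusted p = 0.051). The 8 microglial markers summed to between 227 and 306, 176 and 308, and 157 and 207 CPM in the 3 groups, with 3 lower after LPS, against 8.86% of all genes, and 1 higher and 3 lower with CPD-4645, against 14.1% and 16.4%. The 10 markers of pericytes and smooth muscle summed to between 270 and 397, 197 and 328, and 227 and 297 CPM, with 1 higher and 4 lower after LPS and 1 lower with CPD-4645, against the same shares. Sums of fibroblast, ependymal and platelet markers overlapped among all 3 groups. Of the 7 fibroblast markers 1 was higher and 3 lower after LPS, against 11.1% and 8.86% of all genes, and none passed with CPD-4645. Of the 5 ependymal markers 1 was higher after LPS and 2 were lower with CPD-4645, against 11.1% and 16.4%. Of the 3 platelet markers tested none passed after LPS, and 1 was higher and 1 lower with CPD-4645, against 14.1% and 16.4%. The part of these cells in the results for the 9 genes was not tested.

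The other kinases of the complex moved in different directions. Pdk2 rose by less after LPS from 115 ± 8.52 to 148 ± 11.4 CPM (log2 fold change 0.36 ± 0.08, adjusted p = 0.0037), and Pdk3 fell from 30.8 ± 2.86 to 23.3 ± 1.02 CPM (adjusted p = 0.0039). Pdk1 did not pass after LPS and fell with CPD-4645 from 50.3 ± 4.36 to 40.6 ± 1.31 CPM (adjusted p = 0.0058). Of the 10 genes of this list, 3 were higher with CPD-4645, against 14.1% of all genes, among them Mpc1, a subunit of the mitochondrial pyruvate carrier. Lower were 2, Pdk1 and the dehydrogenase subunit Pdhb, against 16.4%, and the Pdhb call was lost without LPS-CPD-4645 mouse 2 or 3 (adjusted p = 0.062 and 0.065).

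Cpt1a, on chromosome 19 (3322334 to 3385733, plus strand), did not pass in any comparison. It was 20.4, 18.2, 17.0 and 13.04 CPM in sham-vehicle mice, and 20.4, 20.9, 17.5, 25.8 and 24.3 CPM in LPS-vehicle mice. In LPS-CPD-4645 mice it was 25.5, 21.5, 23.1 and 16.5 CPM. All groups overlapped. The log2 fold change was 0.35 ± 0.15 after LPS (adjusted p = 0.12), with a 95% interval from 0.03 to 0.67, and 0.33 ± 0.16 between LPS-CPD-4645 and sham-vehicle mice (adjusted p = 0.11; 0.036 without LPS-CPD-4645 mouse 4). With CPD-4645 relative to LPS-vehicle it was -0.02, with a 95% interval from -0.34 to 0.30.

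Per length of transcript, Pnpla2 was the most abundant of the 9 genes in every group. Its level was 9.20 ± 1.43 CPM per kb in sham-vehicle mice, where it overlapped Lpl at 7.88 ± 1.60, and 30.4 ± 4.91 and 71.7 ± 9.83 CPM per kb in LPS-vehicle and LPS-CPD-4645 mice, where it stood apart from all others. Plin4 was eighth in sham mice, at 0.539 ± 0.41 CPM per kb, and second in LPS-vehicle mice, at 16.1 ± 4.30, above and apart from Angptl4 at 9.14 ± 1.75. In LPS-vehicle mice the neighbours Angptl4, Plin2, Pdk4, Lpl and Cpt1a overlapped in sequence, from 9.14 down to 5.04 CPM per kb. Lipe and Fabp4 were the lowest after LPS, at 2.42 ± 0.648 and 0.63 ± 0.311 CPM per kb.

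In the sham-vehicle and LPS-CPD-4645 groups 1 mouse was lowest for most of the genes. Sham-vehicle mouse 4 had the lowest level of 7 of the 9 genes in its group, and so did LPS-CPD-4645 mouse 4 in its own. The exceptions were the same in both, Lpl and Fabp4, and each of these mice had the highest Lpl of its group. They also had the highest mitochondrial share of their groups, 12.7% and 8.17%. In the LPS-vehicle group no mouse was lowest for most genes: mice 1 and 3 were lowest for 4 genes each and mouse 5 for 1.

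The 5 genes whose course over the 13 mice was most like that of Pnpla2 are given as a description. Likeness was the root mean square difference between log2 CPM centred on each gene's mean, over 13784 protein-coding genes of at least 1 CPM. Nearest was Pmaip1, a pro-apoptotic target of p53, at 0.252, with means of 6.56 ± 0.693, 25.0 ± 5.62 and 48.1 ± 8.70 CPM in the 3 groups. It was followed by Igfbp3, a binding protein of insulin-like growth factors (0.259), Txnip, a brake on glucose uptake (0.277), Slc25a13, the mitochondrial aspartate-glutamate carrier (0.279), and the cell cycle inhibitor Cdkn1a (0.339). Cdkn1a went from 27.4 ± 8.23 to 146 ± 38.1 and 302 ± 15.7 CPM. Within the set the nearest were Pdk4 at 0.562, in place 54 of the 13784, and Angptl4 at 0.583, in place 64.

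The rest of the pathway was read from 12 lists with 130 entries, of which 119 were tested. Of these, 17 were higher and 7 lower in LPS-vehicle mice (median log2 fold change 0.02), beside 11.1% and 8.86% over all genes. With CPD-4645 relative to LPS-vehicle 13 were higher and 29 lower, with a median of -0.03, beside 14.1% and 16.4% over all genes. Without sham-vehicle mouse 4 the counts after LPS were 10 and 4. With CPD-4645 the higher count was 8 without LPS-CPD-4645 mouse 2, and the lower count was between 21 and 29 over all fits without 1 mouse.

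**Figure D4:**
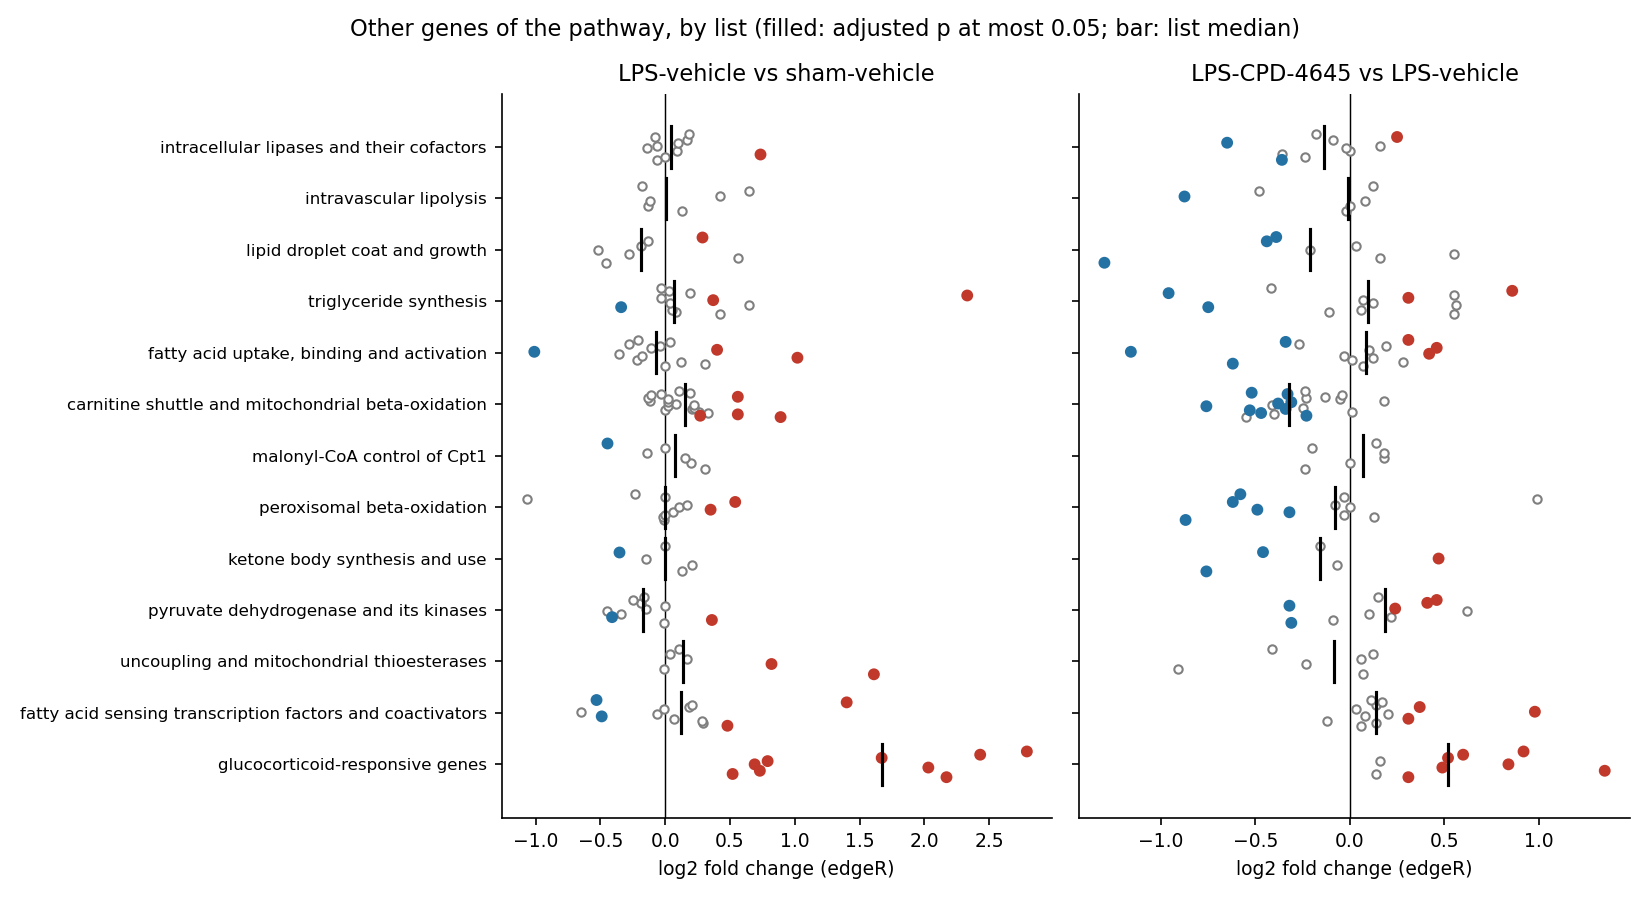
Log2 fold change (x axis) of each tested gene of the pathway lists (rows) after LPS (left) and with CPD-4645 relative to LPS-vehicle (right); filled points have an adjusted p no higher than 0.05, red higher and blue lower, and the bar is the list median. In the mitochondrial beta-oxidation row 9 of 20 genes are blue on the right and none is red.

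Many genes listed under the carnitine shuttle and mitochondrial beta-oxidation were lower with CPD-4645. Of 20 tested, Cpt1b, Cpt1c, Cpt2 and Eci2 rose after LPS and none fell, against 11.1% and 8.86% of all genes. In the fits without 1 mouse 2 to 4 rose, with 2 without sham-vehicle mouse 1 or 4 or LPS-vehicle mouse 1. Cpt1c was counted by its place in the list, and whether it serves mitochondrial beta-oxidation here was not tested. With CPD-4645 9 fell and none rose, against 16.4% and 14.1% of all genes, and 18 of the 20 had a value below 0, with a median of -0.32 beside -0.02 over all genes. Acadm, the medium-chain acyl-CoA dehydrogenase, was 26.0 ± 2.60 CPM in sham-vehicle and 26.4 ± 2.04 CPM in LPS-vehicle mice. With CPD-4645 it was 15.6 ± 0.53 CPM, with all treated mice below all others (log2 fold change -0.76 ± 0.10, adjusted p = 4.7e-05). Crat, Etfb, Slc25a20, Hadha, Acadvl, Etfa, Hadhb and Cpt1c were the other 8 that fell, by 0.23 to 0.53. Cpt1b, the muscle form of the gate enzyme, rose after LPS from 2.23 ± 0.565 to 4.09 ± 0.598 CPM (adjusted p = 0.023), a call lost without sham-vehicle mouse 1 or 2 or LPS-vehicle mouse 1 (adjusted p from 0.056 to 0.073). The number that fell with CPD-4645 was 5 without LPS-CPD-4645 mouse 4, and none rose in any fit without 1 mouse.

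Of 11 peroxisomal genes, 5 fell with CPD-4645, against 16.4% of all genes, none rose and 6 did not pass. Acaa1a was the largest rise of this list after LPS, from 31.8 ± 5.07 to 46.4 ± 13.1 CPM (adjusted p = 0.046), but that call was lost in most fits without 1 mouse, with an adjusted p of up to 0.14, and its reads may be split with the near copy Acaa1b. In ketone metabolism, Oxct1, which activates ketone bodies for use, went from 283 ± 8.74 to 221 ± 18.1 and 161 ± 25.6 CPM and fell at both steps (adjusted p = 0.01 and 0.0014). Bdh1 rose with CPD-4645 from 43.5 ± 3.33 to 60.5 ± 4.57 CPM (adjusted p = 0.00054).

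Of the 6 genes tested that set malonyl-CoA, the inhibitor of Cpt1a, none passed with CPD-4645, where 14.1% of all genes were higher and 16.4% lower. After LPS 1 of the 6 was lower, against 8.86% of all genes, and none was higher, against 11.1%. This was Prkaa2, a catalytic subunit of AMP-activated kinase, at 26.4 ± 3.22 against 36.0 ± 3.71 CPM (adjusted p = 0.017; 0.053 and 0.06 without sham-vehicle mouse 3 or 4). Ucp2, the uncoupling protein of brain and immune cells, rose after LPS in the manner of Pdk4. It went from 51.8 ± 5.34 to 158 ± 48.1 CPM (log2 fold change 1.61 ± 0.17, adjusted p = 2e-06) and was 167 ± 11.2 CPM with CPD-4645, where the difference from LPS-vehicle was 0.07, with a 95% interval from -0.26 to 0.41.

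Of the 12 triglyceride synthesis genes, 2 were higher and 2 lower with CPD-4645, against 14.1% and 16.4% of all genes, and 2 were higher and 1 lower after LPS, against 11.1% and 8.86%. The last step has a pair of unrelated enzymes, and these went opposite ways. Dgat1 was 36.2 ± 2.67 CPM in sham-vehicle, 41.6 ± 4.75 CPM in LPS-vehicle and 21.3 ± 1.75 CPM in LPS-CPD-4645 mice, and Dgat2 was 84.0 ± 5.21, 85.6 ± 7.50 and 155 ± 24.5 CPM. Neither passed after LPS. With CPD-4645 Dgat1 fell by 0.96 ± 0.10 on the log2 scale (adjusted p = 6.3e-06) and Dgat2 rose by 0.86 ± 0.10 (adjusted p = 1.2e-05), and in neither gene did treated mice overlap LPS-vehicle mice. Agpat1, which adds the second fatty acid, fell at both steps, from 151 ± 14.9 to 119 ± 14.7 and 71.0 ± 7.02 CPM (adjusted p = 0.021 and 4.8e-05), the former not without sham-vehicle mouse 3 or 4 (adjusted p = 0.058 and 0.084). Lpin3, a phosphatidate phosphatase, rose after LPS from 0.701 ± 0.177 to 3.56 ± 0.611 CPM (adjusted p = 8e-05).

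**Figure D5:**
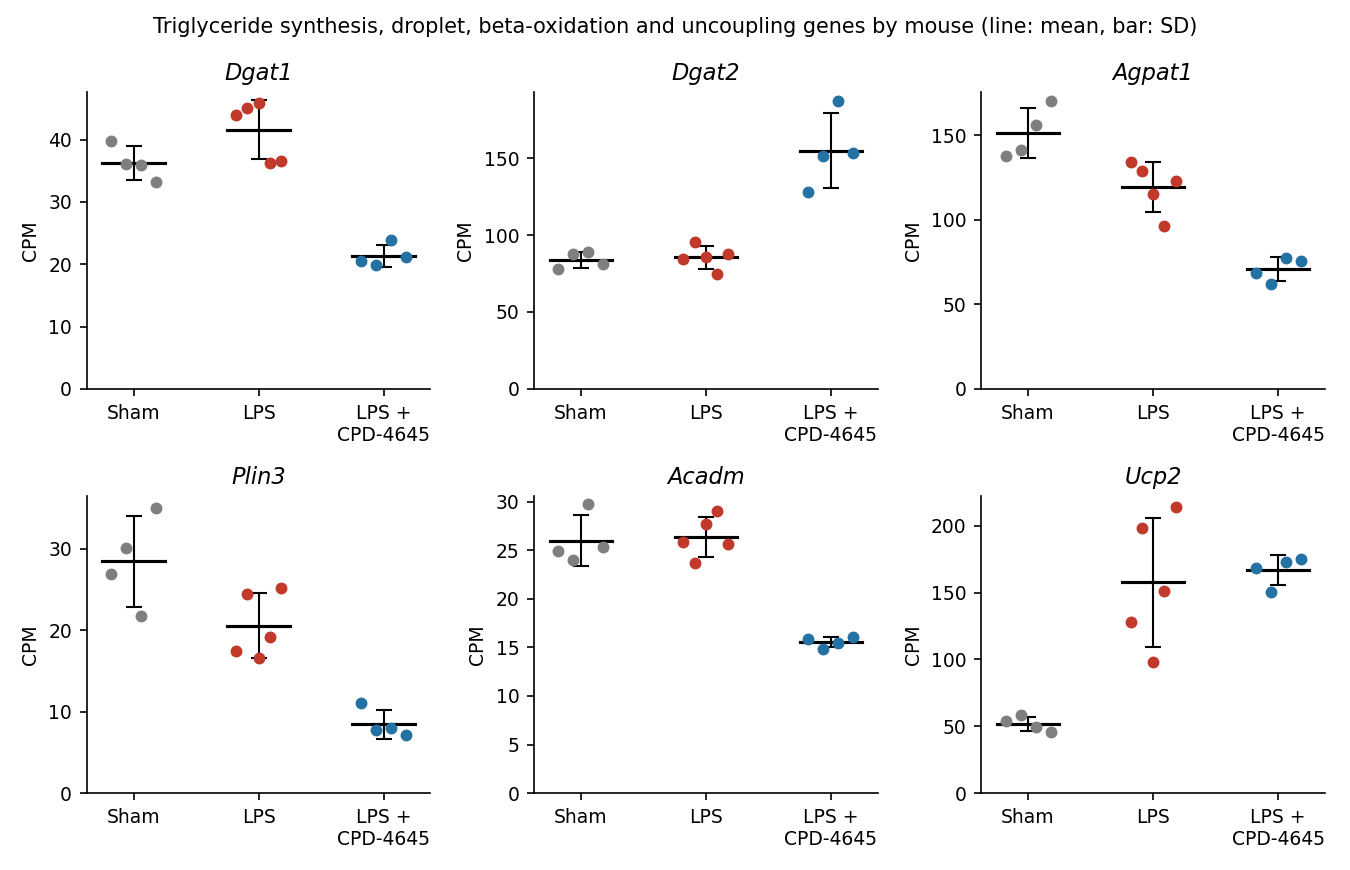
Level in CPM (y axis, from 0) of 6 genes in every mouse, by group (x axis); points are mice, the line is the group mean and the bar its SD. With CPD-4645 Dgat1 falls from a mean of 41.6 to 21.3 CPM and Dgat2 rises from 85.6 to 155 CPM, Agpat1, Plin3 and Acadm are below every LPS-vehicle mouse, and Ucp2 has means of 158 and 167 CPM in both LPS groups.

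Among genes of fatty acid uptake and binding, Mfsd2a, the carrier of docosahexaenoic acid at the blood-brain barrier, rose after LPS from 35.6 ± 7.72 to 72.0 ± 7.33 CPM (log2 fold change 1.02 ± 0.14, adjusted p = 4.1e-05) and stayed at 78.5 ± 13.8 CPM with CPD-4645. Fabp7, the fatty acid carrier of astrocytes and their precursors, fell at both steps, from 37.3 ± 7.65 to 18.7 ± 7.04 and 8.30 ± 1.48 CPM (adjusted p = 0.0037 and 0.0016), with no overlap between groups. Acsl1, which activates long-chain fatty acids, rose with CPD-4645 from 40.9 ± 4.30 to 56.2 ± 5.68 CPM (adjusted p = 0.0013). The scavenger receptor gene Cd36 had group means from 1.31 to 1.47 CPM and passed in no comparison. Its mice ran from 0.252 CPM in LPS-vehicle to 2.26 CPM in LPS-CPD-4645.

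Of 13 fatty acid sensing regulators, 12 were tested. Klf15, a regulator of lipid and amino acid use that glucocorticoids induce, had the largest rise after LPS, from 19.2 ± 1.32 to 50.6 ± 3.92 CPM (log2 fold change 1.40 ± 0.09, adjusted p = 1.3e-08), and was 57.0 ± 4.06 CPM with CPD-4645 (adjusted p = 0.13). Foxo1, a known activator of Pnpla2 transcription, was 28.6 ± 2.01, 32.4 ± 1.13 and 42.1 ± 2.54 CPM in the 3 groups. It did not pass after LPS (adjusted p = 0.14) and rose with CPD-4645 (log2 fold change 0.37 ± 0.08, adjusted p = 0.0024). Foxo3 was 83.2 ± 4.79, 96.5 ± 4.55 and 106 ± 8.14 CPM and passed only between LPS-CPD-4645 and sham-vehicle mice (adjusted p = 0.0017), with an adjusted p of 0.051 after LPS that passed without sham-vehicle mouse 2 (0.045) or LPS-CPD-4645 mouse 3 (0.039). Ppara, the main fatty acid receptor of liver, had group means from 0.137 to 0.474 CPM and was not tested.

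Among the other regulators, Ppard rose after LPS from 14.3 ± 2.44 to 20.003 ± 2.02 CPM (adjusted p = 0.018; 0.06 and 0.065 without sham-vehicle mouse 2 or 4). Nr3c1, the glucocorticoid receptor, fell from 79.0 ± 2.23 to 54.8 ± 5.24 CPM (adjusted p = 0.00099), and Rxrg fell from 12.1 ± 1.34 to 8.60 ± 1.66 CPM (adjusted p = 0.046, up to 0.12 without 1 mouse). With CPD-4645 Rxrb rose from 72.6 ± 8.10 to 89.7 ± 9.99 CPM (adjusted p = 0.019; 0.062 and 0.055 without LPS-CPD-4645 mouse 2 or 3). Ppargc1b, a coactivator of mitochondrial genes, rose from 1.12 ± 0.336 to 2.15 ± 0.601 CPM (adjusted p = 0.029, up to 0.1 without 1 mouse).

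Glucocorticoid-responsive genes were read beside Pnpla2 because Klf15 and Pdk4 are known to answer to glucocorticoids. All 9 of the list were higher in LPS-vehicle than in sham-vehicle mice (median log2 fold change 1.67), against 11.1% of all genes, and 7 of the 9 were higher again with CPD-4645, against 14.1%, with a median of 0.52 beside -0.02 over all genes. Mt2, a metallothionein, had the largest rise after LPS, at 2.79 ± 0.27 (adjusted p = 9.2e-07), and Per1, a clock gene that glucocorticoids induce, had the largest with CPD-4645. Per1 was 54.2 ± 5.32, 89.8 ± 8.93 and 228 ± 20.5 CPM in the 3 groups, and its log2 fold change was 0.73 ± 0.09 after LPS (adjusted p = 1.8e-05) and 1.35 ± 0.09 with CPD-4645 (adjusted p = 1.4e-07). Whether the courses of this list and of Pnpla2 are related was not tested.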

How the data were processed

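RNA-seq was performed on brain neurovascular preparations from 13 mice. The authors deposited 1 table of raw read counts per gene. Per the labels, reads were aligned with STAR 2.5.2a to mm10 after bcl2fastq 2.15.0.4. Which strand column of the STAR counts was kept is not given in the sources used here. All 13 columns matched a labelled mouse. Symbols, positions and lengths came from GENCODE M21 (GRCm38) by Ensembl identifier, version dropped, with 47224 of 47643 identifiers matched. Promoter sequences came from RefSeq.

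From the deposited counts, genes were kept with edgeR's filterByExpr (minimum count 10, minimum total 15), which left 17285. CPM used TMM-scaled library sizes, with factors from 0.908 to 1.08. All 13 mice entered 1 edgeR 4.0.16 quasi-likelihood fit (R 4.3.3) with group as the only term and 10 residual degrees of freedom, which gave log2 fold changes, standard errors and 95% intervals. Passed, rose and fell mean a two-sided p of 0.05 or less after Benjamini-Hochberg adjustment over all genes tested (adjusted p). The code was tested on simulated data. Alternatives used limma 3.58.1, DESeq2 1.42.0 and other filters, scalings and sets of mice, 23 in all. Plots and tables were made with Python 3.11.15, pandas 2.3.3, numpy 2.4.6, scipy 1.17.1 and matplotlib 3.10.9. Total counts differed between libraries, and the deepest held 7.06 times the reads of the shallowest.

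The genes and lists were chosen with earlier results of these data known. Named were all 9 genes, Mgll, the largest rise and fall of each list and comparison at a mean of at least 1 CPM, the regulators that passed, and the 5 genes most like Pnpla2. Abhd5, G0s2, Bscl2, Cd36, Gpihbp1, Ppara and the other beta-oxidation genes that passed were added after their values were seen. All other choices of genes to name followed that rule, except that some genes it selects are not reported here.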

Additional observations from a re-analysis of the deposited data

Results flagged for a closer look

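In 2 of the 30 gene and group sets examined, 1 mouse stood apart from its group by Dixon's 95% criterion, which chance meets in about 1 of 20 sets. Lpl was 29.0 CPM in LPS-vehicle mouse 3, where the nearest other mouse had 21.5 CPM, a gap of 0.720 of the group's range where the criterion for 5 mice is 0.71. That mouse had the shallowest library, with 7813559 counts. Plin2 was 5.09 CPM in sham-vehicle mouse 4, where the nearest had 7.10 CPM, a gap of 0.887 of the range, past the criterion for 4 mice. That mouse had the highest mitochondrial share, 12.7%. The part of depth and of the mitochondrial share in these values was not tested.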

How the results depend on the processing

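No log2 fold change reversed a call among the 9 genes, Mgll, the regulators that passed and the largest rise and fall of each pathway and glucocorticoid list. Other genes named in the text, such as Gfap and Abhd5, were not in this tally. Of 547 values of the 8 genes other than Pnpla2 under alternatives, 527 kept their direction and side of the threshold, 19 were no longer past it and 1 came past it. Of 2757 values of the other genes in the tally, these numbers were 2584, 145 and 28. With DESeq2 size factors the counts of the 8 genes were the same, and the median of all genes moved by at most 0.01 (log2). A test against a 2-fold change (glmTreat), which asks for a larger change by construction, left after LPS 3 of the 8 genes higher, 0 lower and 3 at 2-fold, with CPD-4645 relative to LPS-vehicle 0 higher and 0 lower, and relative to sham 3 higher. In the same order of comparisons it left 403, 30 and 404 of all genes higher and 36, 35 and 157 lower, and 3, 0 and 3 genes of the pathway lists higher and 0, 0 and 2 lower. DESeq2 called 1 of the 8 genes lower with CPD-4645. Without the 2 shallowest libraries 1 gene, Plin4, passed with a 2-fold change there, at -1.01. The causes were not tested.

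Without 1 mouse, the 8 genes gave after LPS between 5 and 6 higher, 0 and 1 lower (0 without sham-vehicle mouse 4) and 5 at 2-fold. With CPD-4645 they gave between 0 and 1 higher and 0 and 2 lower (0 and 0 without LPS-CPD-4645 mouse 4) and 0 and 1 at 2-fold (1 without LPS-vehicle mouse 1 or 3 or LPS-CPD-4645 mouse 2). Relative to sham they gave 5 to 7 higher. In the pathway lists these ranges were 10 to 17 higher and 4 to 10 lower after LPS, 8 to 13 and 21 to 29 with CPD-4645, and 18 to 20 and 17 to 23 relative to sham.

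Not every pair of mice with the same number in different groups deviated together, so the numbers were not taken to pair the mice. Correlations of these pairs ran from -0.035 to 0.114 (median 0.0275, with 1 of 12 over 0.1, mouse 4 of the sham-vehicle and LPS-CPD-4645 groups). Those of the other pairs ran from -0.137 to 0.124 (median -0.013). Of the 13 mice 6 correlated best with their own number. LPS-vehicle mouse 5 has no partner of its number and could not, and no chance level was computed for this count. With the replicate number as a block, the 8 genes gave 5 higher, 1 lower and 5 at 2-fold after LPS (Lipe 0.62, adjusted p = 0.057 in edgeR), 1, 2 and 0 with CPD-4645, and 6, 0 and 4 relative to sham. Depth limits Fabp4 most, with at most 35 reads in a library.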
